A study of Mus musculus with 4 samples.

Results

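Proliferating endothelial cells (ECs) of the mouse left ventricle were picked out by their transcripts from 4 single-cell libraries of RFP-positive cells. A cell entered when it carried at least 3 unique molecular identifiers (UMIs, 1 per captured transcript molecule) summed over Mki67, Top2a, Ccnb1 and Birc5 and at least 3 summed over the endothelial genes Pecam1, Cdh5, Kdr, Tie1, Egfl7 and Cldn5. It also had to show no UMI of the B and T cell genes Cd79a, Cd79b, Ms4a1, Cd3e, Cd3d and Cd3g and at most 1 UMI summed over the pericyte genes Kcnj8, Abcc9, Vtn and Pdgfrb. Of 41843 deposited cells, 39829 passed filters on genes, mitochondrial and hemoglobin UMIs, 35294 were ECs by the endothelial, lymphocyte and pericyte conditions, and 119 were proliferating. They were compared with the 34784 ECs of the same libraries that had no UMI of the 4 cycle genes (non-cycling ECs), and the 391 ECs with 1 or 2 such UMIs were left between the states.

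Mice were on a C57BL/6N background and carried a tamoxifen-inducible Cre under the Cdh5 promoter (Cdh5-CreER), a R26-stop-tdTomato reporter and at least 1 Scarb1 allele with loxP sites around exon 2, and tamoxifen was given at 7 weeks of age. NC mice received chow with 10% of calories from fat, and HFpEF mice received a diet with 60% of calories from fat together with L-NAME, a nitric oxide synthase inhibitor, at 0.5 mg/ml in the drinking water. HFpEF stands for heart failure with preserved ejection fraction, which this regimen is used to model. There were 2 libraries of each diet. The study describes 4 groups of mice that cross diet with Scarb1 genotype (1 or 2 floxed alleles), and the labels do not say which genotype a library holds. The 2 libraries of a diet may therefore differ in genotype as well, and genotype cannot be told apart from the spread between libraries that every test of diet below rests on. The number of mice in a library was not given. Sorting on the reporter keeps cells in which Cdh5 was active at or after tamoxifen, together with any contaminating cells. Values are given below in the order NC library 1, NC library 2, HFpEF library 1 and HFpEF library 2.

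In the adult heart, most ECs are quiescent, held out of the cell cycle by CDK inhibitors and by flow-induced factors such as Klf2 and Klf4. A cell that re-enters the cycle first induces E2F targets, among them the helicase, polymerase and nucleotide-supply genes of S phase. Genes of G2 and mitosis follow, and many of these are controlled through paired promoter elements, the cell cycle genes homology region (CHR) bound by the DREAM and MuvB complexes and CCAAT boxes bound by NF-Y.

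The 4 genes that chose the cells belong to the later wave. Mki67 (chromosome 7, 135689784-135716361, minus strand) encodes Ki-67, which coats mitotic chromosomes. Top2a (chromosome 11, 98992943-99024189, minus strand) encodes the topoisomerase that untangles sister chromatids. Ccnb1 (chromosome 13, 100778650-100786570, minus strand) encodes cyclin B1, the partner of Cdk1 at mitotic entry. Birc5 (chromosome 11, 117849251-117855743, plus strand) encodes survivin, a subunit of the chromosomal passenger complex. Gene positions are those of the GENCODE annotation of GRCm38. The bases just upstream of their RefSeq start sites (GRCm38.p6, 5′ to 3′ along the gene's strand) are shown because the 4 windows differ in these elements. Capitals mark CHR letters (TTTGAA or TTCGAA) and CCAAT, each on either strand. The windows shown are chr7:135716380-135716609 for Mki67, chr11:99024190-99024419 for Top2a, chr13:100786571-100786716 for Ccnb1 and chr11:117849007-117849236 for Birc5, and that of Ccnb1 is shorter because the GENCODE gene model begins further upstream.
Mki67: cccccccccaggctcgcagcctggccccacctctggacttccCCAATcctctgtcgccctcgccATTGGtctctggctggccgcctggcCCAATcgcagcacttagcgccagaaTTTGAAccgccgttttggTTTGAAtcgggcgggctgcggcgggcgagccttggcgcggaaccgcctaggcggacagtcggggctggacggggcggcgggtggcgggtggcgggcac
Top2a: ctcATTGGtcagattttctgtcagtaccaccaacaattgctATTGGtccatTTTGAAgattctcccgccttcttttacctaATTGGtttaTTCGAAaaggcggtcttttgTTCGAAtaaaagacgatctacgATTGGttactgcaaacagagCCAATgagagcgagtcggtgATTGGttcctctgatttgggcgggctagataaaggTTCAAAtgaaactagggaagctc
Ccnb1: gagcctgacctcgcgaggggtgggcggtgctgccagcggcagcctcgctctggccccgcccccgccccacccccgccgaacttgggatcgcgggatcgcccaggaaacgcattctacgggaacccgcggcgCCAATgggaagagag
Birc5: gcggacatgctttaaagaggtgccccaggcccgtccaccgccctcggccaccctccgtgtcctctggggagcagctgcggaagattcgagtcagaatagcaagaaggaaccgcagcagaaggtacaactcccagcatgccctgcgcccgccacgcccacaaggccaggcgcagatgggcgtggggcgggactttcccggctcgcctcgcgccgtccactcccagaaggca

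In the full windows of 300 bases, from 250 bases before to 50 after the start site, Mki67 held 2 CHR and 3 CCAAT matches, and Top2a held 4 CHR and 6 CCAAT matches. Ccnb1 held 2 CCAAT matches and no CHR match, 1 of them inside its gene model and not shown, and Birc5 held neither. No window held an E2F match (TTTCCCGC, TTTCGCGC, TTTGCCGC or TTTGGCGC, either strand). Of all 32851 RefSeq promoter windows of this length, 19.2% held a CHR match, 37.4% a CCAAT match, 7.52% both and 2.26% an E2F match. CHR letters occurred in 14 of 19 windows (73.7%) of the list of mitotic kinases, cyclins and anaphase-promoting complex genes and in 31 of 45 windows (68.9%) of the spindle and kinetochore list. The DNA replication list had CHR letters in 7 of 40 windows (17.5%) and E2F letters in 16 of 40 (40%). The deoxynucleotide supply list held neither in any of 14 windows, and replication-dependent histones had CHR letters in 7 of 16 windows (43.8%) and E2F letters in none. A match of letters describes the window and is not a measured binding site.

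The proliferating ECs numbered 36, 20, 10 and 53 in the 4 libraries. All 119 carried a UMI of at least 1 endothelial identity gene outside the rule. Their deepest cell had 21435 UMIs and their shallowest 717. Median UMIs per cell were 8736, 8394, 2984 and 3899, against 3764, 4083, 1788.5 and 1731 in non-cycling ECs, higher in each library. The rule asks for at least 3 cycle UMIs in a member and for 0 in a non-cycling EC, which by itself selects deeper cells, so this difference is partly fixed by the choice of cells. Mitochondrial transcripts made up a median 3.49%, 3.73%, 9.13% and 3.94% of their UMIs, against 6.82%, 6.22%, 8.14% and 5.85%. Above the 99th percentile of UMIs among the ECs of their library lay 6, 6, 2 and 6 of the proliferating ECs. No doublet caller was run, and the part of doublets in the results was not tested. Of 41676 distinct cell barcodes, 166 occurred in more than 1 library, and 3 proliferating ECs carried such a barcode.

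Summed over its proliferating ECs, each library gave 330378, 188867, 36064 and 267612 UMIs, and the non-cycling ECs gave 27043751, 27387648, 9466516 and 41061715. In HFpEF library 1, 1 UMI therefore equals 27.7 CPM (UMIs per 1000000 of a sum) in the proliferating cells, and its low values are the least precise.

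The label was checked with 60 genes of mitosis that the rule did not use, and the members were not uniform. In 25 of the 119 cells (6, 9, 4 and 6 per library), every cycle UMI came from Ccnb1. None of these 25 had 5 or more UMIs of the 60 mitotic genes, with a median of 1 and a maximum of 3. Among the other 94 cells, 90 had 5 or more, with a median of 56 and a maximum of 355. Per 10000 UMIs, the Ccnb1-only cells held 2.14, 2.41, 2.37 and 1.35 UMIs of the mitotic genes, the non-cycling ECs 1.79, 2.12, 1.96 and 2.26, and the other members 118, 116, 126 and 109. The mitotic program was thus at the level of non-cycling ECs in 25 members and far above it in nearly all of the 94. Because the data go against the label for the 25 cells, they are called Ccnb1-only members below, and results that rest on them are given with and without them. This division was made after the values were seen. The median mitochondrial share of the other 94 was 3.41%, 3.24%, 7.08% and 3.94%, below that of non-cycling ECs in each library, whereas over all members HFpEF library 1 was above it.

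**Figure D1:**
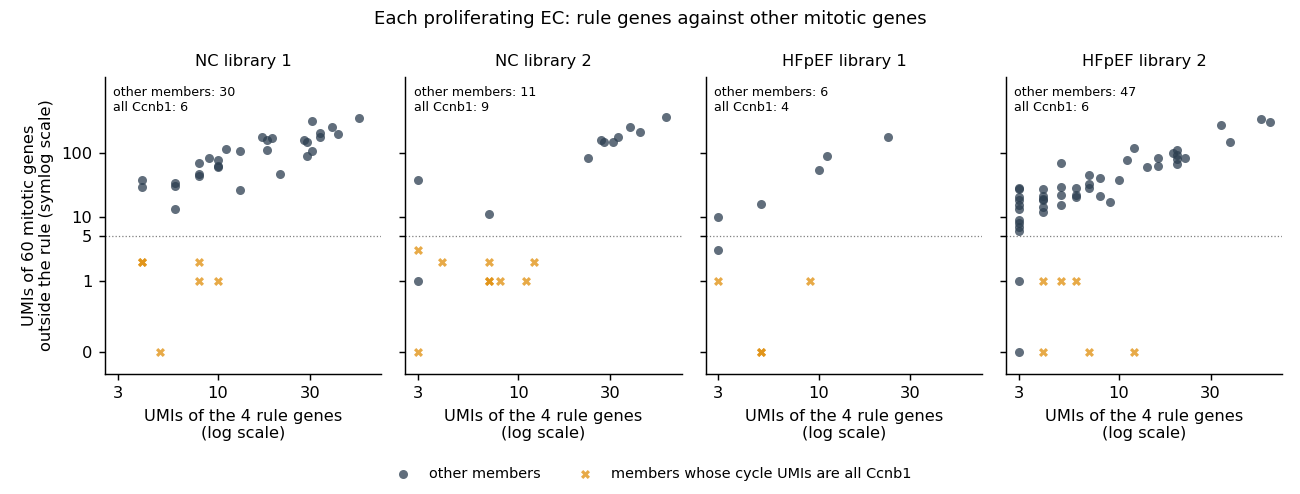
Each point is 1 proliferating EC, with the summed UMIs of Mki67, Top2a, Ccnb1 and Birc5 on the x axis (log scale) and the summed UMIs of 60 other mitotic genes on the y axis (symmetric log scale), in 1 panel per library. The 25 Ccnb1-only members (crosses) sit at 0 to 3 mitotic UMIs in every library, and 90 of the other 94 (circles) lie on or above the dotted line at 5.

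Few members had UMIs of only 1 of the other 3 rule genes. Cells whose cycle UMIs were all Top2a numbered 4, of which 1 had 5 or more mitotic UMIs, those with Mki67 alone numbered 3, of which 2 did, and there were none with Birc5 alone. Of the 94 other members, Mki67 was detected in 85, Top2a in 81, Birc5 in 77 and Ccnb1 in 33. They carried 1, 2, 3 or 4 of the rule genes in 7, 19, 41 and 27 cells.

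The rule's threshold lay within a gradient. The 19 ECs with exactly 3 cycle UMIs, just inside the rule, had a median of 8 mitotic UMIs, and 12 of them had 5 or more. The 42 ECs with 2 cycle UMIs, just outside it, had a median of 2.5, and 12 of them had 5 or more. Of the 34784 non-cycling ECs, 233 had 5 or more. The 46 members with 11 or more cycle UMIs had a median of 132 mitotic UMIs and a median of 10537.5 UMIs in all.

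The levels of the rule genes, which chose the cells, were as follows. Mki67 was at 605, 540, 444 and 762 CPM, Top2a at 509, 572, 665 and 661 CPM and Birc5 at 454, 392, 305 and 490 CPM. Ccnb1 was at 275, 387, 721 and 217 CPM in all members and at 177, 81.5, 145 and 81.5 CPM without the Ccnb1-only members. Without them, Mki67 was at 683, 756, 579 and 831 CPM, Top2a at 573, 800, 868 and 721 CPM and Birc5 at 512, 548, 398 and 534 CPM. The division itself was made on these genes, so that Ccnb1 fell and the others rose is fixed by it.

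Proliferating ECs were a small share of ECs under both diets. As deposited they made up 0.545% (36 of 6606 ECs), 0.329% (20 of 6070), 0.211% (10 of 4736) and 0.296% (53 of 17882). The exact Clopper-Pearson 95% intervals were 0.382 to 0.754%, 0.201 to 0.508%, 0.101 to 0.388% and 0.222 to 0.388%, which cover counting error only. Both NC libraries lay above both HFpEF libraries, and the mean of HFpEF was 0.183 percentage points lower. Depth moved with diet, with median UMIs per EC lower in both HFpEF libraries than in both NC libraries, and a threshold in UMIs depends on depth.

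With every EC thinned to 1000 UMIs, which left out 222, 182, 633 and 3522 shallower ECs and with them 2 proliferating ECs of NC library 2, the shares in 1 random draw were 0.157%, 0.102%, 0.122% and 0.139%. The groups then overlapped, with NC at 0.129% ± 0.0387 and HFpEF at 0.131% ± 0.0123 (mean ± SD over n = 2), and the two-sided exact permutation p was 1. The shares expected over all draws were 0.168%, 0.0839%, 0.0983% and 0.137%, with NC at 0.126% ± 0.0596 and HFpEF at 0.118% ± 0.0272, and the difference then had the other sign. For the unthinned shares the exact permutation p was 0.33, which is the smallest that 2 libraries against 2 allow. Without the Ccnb1-only members, the unthinned shares were 0.454%, 0.181%, 0.127% and 0.263%, and the groups overlapped before thinning as well. With 2 libraries per diet, the test could not fall below 0.33 at any depth, so it cannot decide whether the share differs between diets.

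**Figure D2:**
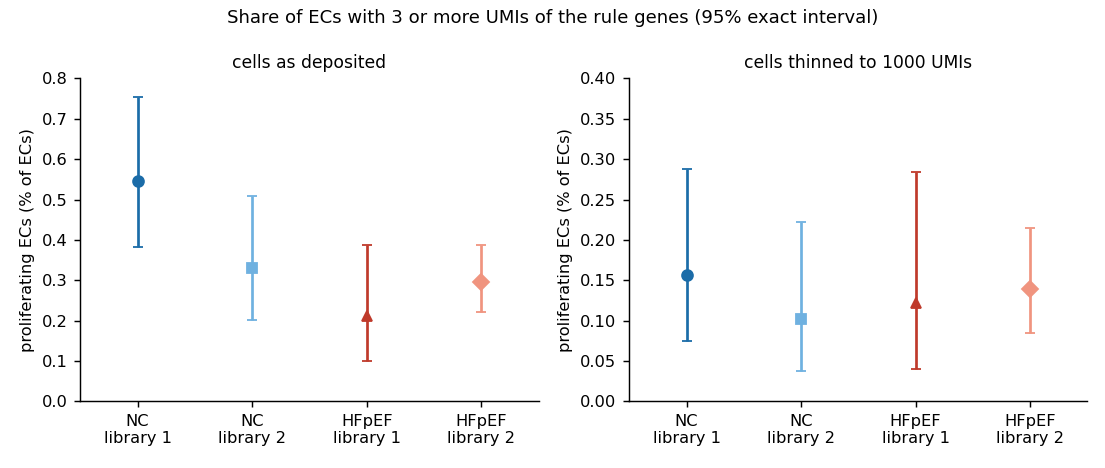
Share of ECs called proliferating in each library, in percent of ECs, as deposited (left) and with each cell thinned to 1000 UMIs (right, another y range), with exact 95% binomial intervals as bars. The left panel falls from 0.545% in NC library 1 to 0.211% in HFpEF library 1, and the right panel spans 0.102% to 0.157% with overlapping intervals.

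Within each library, the summed proliferating ECs were set against the summed non-cycling ECs as a log2 ratio of CPM, with 2 UMIs of the proliferating sum added to both as a prior. The rule chose its members from these cells, so these ratios are a description without a test. Of 6108 genes with at least 20 CPM on average over the 8 sums, 117 (1.92%) were past 2-fold higher in 4 of 4 libraries and 51 (0.835%) past 2-fold lower, and the median of all genes was -0.16. Without the Ccnb1-only members, the counts were 125 of 6111 (2.05%) and 109 (1.78%). Without HFpEF library 1, 245 genes were past 2-fold higher. Without NC library 2, 104 were past 2-fold lower. Leaving out cells above the 99th percentile of UMIs gave 33 higher and 16 lower, and leaving out cells with UMIs of other cell types gave 73 higher. Of the 6108 genes, 689 were higher and 1778 lower in each of the 4 libraries, whatever the size. Of the 117, 69 belonged to lists of cell cycle genes, counting the 4 rule genes, whose rise the rule fixed, and of the 51, none did.

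Of 19 mitotic kinases, cyclins and anaphase-promoting complex genes, 10 were past 2-fold higher in 4 of 4 libraries and none lower, with a median log2 ratio of 3.44. Ube2c, which hands ubiquitin to the anaphase-promoting complex, was at 717, 593, 499 and 594 CPM, against at most 0.740 CPM in non-cycling ECs. Cdk1, the kinase that drives mitosis, was at 300, 302, 277 and 392 CPM against 1.15, 1.68, 1.48 and 2.00. Both genes were near 0 in the non-cycling ECs of every library. Cdc20, an activator of the same complex, was at 548, 349, 360 and 299 CPM against 3.33, 4.67, 5.07 and 5.09. Ccna2, cyclin A2, was at 306, 164, 250 and 325 CPM against 0.296, 0.256, 0.423 and 0.658. Cks2, a small Cdk-binding subunit, was already at 18.7 to 37.1 CPM in non-cycling ECs and at 487 to 594 CPM in proliferating ECs.

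Spindle and kinetochore genes had 29 of 39 past 2-fold higher, with a median of 3.84. Cenpf, a kinetochore protein, was at 723, 413, 665 and 740 CPM, against 0.259, 1.72, 0.845 and 0.560. Prc1, which crosslinks the microtubules of the central spindle, was at 457, 492, 360 and 523 CPM, against 1.15, 0.730, 1.37 and 1.41. Cdca8 (borealin), which sits with survivin in the passenger complex, was at 351, 270, 166 and 329 CPM, against at most 0.703. Tpx2, an activator of Aurora A on the spindle, was at 281, 249, 333 and 232 CPM, against at most 0.925. These 4 genes were close to absent in non-cycling ECs. Tubulins were not. Tubb5 stood at 331, 309, 288 and 334 CPM in non-cycling ECs and at 2146, 2324, 2440 and 2044 CPM in proliferating ECs, and its log2 ratio of 2.52 ± 0.15 (SD, n = 4 libraries) varied least among the named spindle genes. Tuba1b had a ratio of 1.43 ± 0.32 and was past 2-fold in 3 of 4 libraries, and in 4 of 4 without the Ccnb1-only members.

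Chromatin and condensin genes had 12 of 18 past 2-fold higher, with a median of 2.49. Smc2 and Smc4, the core of condensin, had log2 ratios of 3.49 ± 0.58 and 3.07 ± 0.43. Lmnb1, which encodes lamin B1 of the nuclear envelope, was at 291, 217, 250 and 377 CPM against 8.10, 7.92, 9.82 and 11.2. Hmgb2, a DNA-bending chromatin protein, was at 2706, 2203, 2496 and 2485 CPM against 171, 174, 158 and 158, so that all 4 libraries gave nearly one level in each state. H2az1, a histone variant made throughout the cycle, had a ratio of 2.11 ± 0.50.

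DNA replication genes had a lower median than the mitotic lists. The 4 rule genes belong to the later wave, so this order is partly fixed by the choice of cells. Medians of all cell cycle lists also cover only genes that reached the limit on mean CPM over both states. These were 29 of 44 listed replication, 19 of 22 mitotic kinase and 39 of 44 spindle genes. A gene nearly absent from non-cycling ECs enters only through a high level in proliferating ECs. The order beyond these limits was not tested. Of 29 DNA replication genes, 4 were past 2-fold higher in 4 of 4 libraries, although 24 were higher in each of the 4 (689 of all 6108 genes were), and the median was 1.33. Atad2, a bromodomain ATPase of replicating chromatin, was at 163, 196, 222 and 202 CPM against 26.0, 24.0, 26.6 and 32.9. Pcna, the sliding clamp, had a ratio of 0.84 ± 0.20 from a non-cycling level of 154 to 216 CPM, and did not pass 2-fold in 4 of 4. Uhrf1, which maintains DNA methylation behind the fork, and Hells, a chromatin remodeller, had median ratios of 2.80 and 2.27. In HFpEF library 1 they were at 55.5 and 27.7 CPM against 2.96 and 2.22, on 2 UMIs and 1 UMI, and their ratio stayed below 2-fold there because the prior of 2 UMIs equals 43.1 CPM in that library. A low count of genes past 2-fold in 4 of 4 therefore also reflects the depth of HFpEF library 1. In the 94 other members, 7 of 32 replication genes passed, with a median of 1.38.

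Deoxynucleotide supply had 5 of 8 genes past 2-fold higher. Rrm2, the cell cycle-regulated subunit of ribonucleotide reductase, was at 254, 169, 194 and 310 CPM against 4.70, 3.58, 4.23 and 5.50. Its constant partner Rrm1 was at 112, 132, 111 and 105 CPM against 16.4, 16.1, 18.2 and 19.8. Dut, which removes dUTP, had a ratio of 2.26 ± 0.48. Tk1, thymidine kinase, was at 121, 106, 27.7 and 164 CPM, with 1 UMI in HFpEF library 1, and did not pass in 4 of 4. Nme1, a nucleoside diphosphate kinase with a broad housekeeping level, had a ratio of 0.41 ± 0.43.

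Replication-dependent histones had 4 of 8 genes past 2-fold higher. Hist1h2ap was at 139, 323, 111 and 329 CPM, H1f5 at 33.3, 175, 83.2 and 116 CPM and H1f4 at 48.4, 222, 83.2 and 67.3 CPM. NC library 2 was the highest for the linker histones H1f5 and H1f4. H2bc4, whose non-cycling level was 203 to 246 CPM, was lower in each library, with a ratio of -0.77 ± 0.40. Genes of this family have near-identical copies, so the split of reads among them is uncertain.

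At the G1/S boundary, 1 of 8 cyclin and E2F genes was past 2-fold higher. E2f2, an activating E2F, was at 57.5, 26.5, 83.2 and 44.8 CPM, against at most 0.365. Ccnd2 (cyclin D2) was lower, at 78.7, 154, 166 and 120 CPM against 240, 238, 307 and 312, and was past 2-fold in 3 of 4 libraries, and in 4 of 4 without the Ccnb1-only members (median ratio -1.94). Cdk4 had a ratio of 0.85 ± 0.40. The median of this list was 0.37, the lowest among the cell cycle lists.

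The Ccnb1-only members did not share this program. When each list was summed within a library, the log2 ratio of the mitotic kinase list to non-cycling ECs was 4.05 to 4.45 in the 94 other members. In the Ccnb1-only members it was 0.29, 0.17, 0.04 and -0.52, and that of the DNA replication list was -0.15, 0.25, 0.23 and 0.37.

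**Figure D3:**
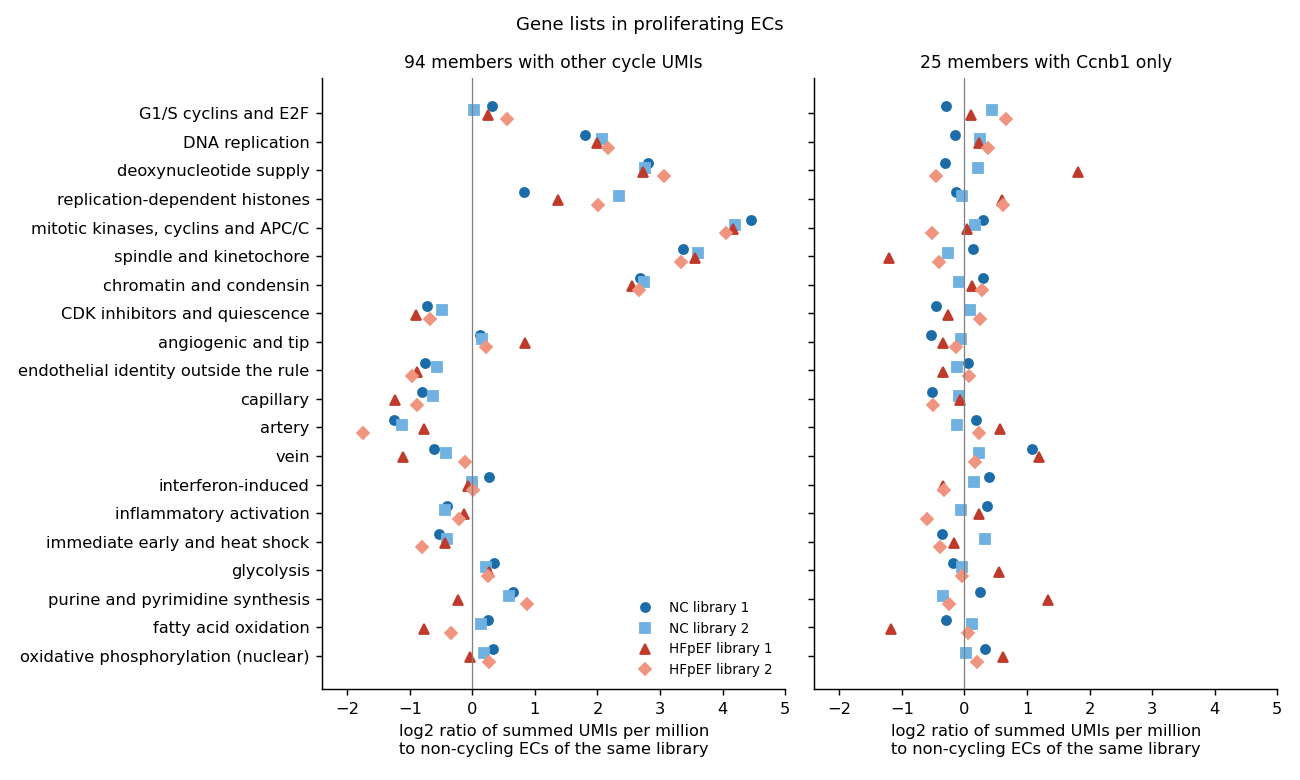
Log2 ratio of the summed CPM of each gene list to that of non-cycling ECs of the same library, for the 94 other members (left) and the 25 Ccnb1-only members (right), with 1 symbol per library. On the left the 3 mitotic, spindle and chromatin lists lie above 2 and the capillary and endothelial identity lists below 0 in every library, and on the right the mitotic kinase list lies between -0.52 and 0.29.

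Cells richer in replication than in mitotic transcripts were a minority. The 4 rule genes belong to the later wave, so this is partly fixed by the choice of cells. With the 58 replication genes set against the 60 mitotic genes within each cell, replication UMIs exceeded mitotic UMIs in 21 of the 94 other members, in 3 of 30, 2 of 11, 2 of 6 and 14 of 47 per library. By construction, these 21 cells had more replication and fewer mitotic transcripts, at 5890 CPM of the DNA replication list against 2553 CPM in the other 73 and 1757 CPM of the mitotic kinase list against 5191 CPM. They had 1579 CPM of replication-dependent histones against 1076 CPM. Ccnb1 was found in 2 of the 21 and in 31 of the 73, and Mki67 in 16 of the 21 and 69 of the 73, both being rule genes, whose summed UMIs had a median of 4 in the 21 and 11 in the 73. This is a range of 1 balance between transcripts, not a call of cell cycle phase.

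Of 21 genes of the CDK inhibitor and quiescence list, none was past 2-fold higher in 4 of 4 libraries and 2 were past 2-fold lower. Cdkn1c (p57) was one of them, at 106, 196, 166 and 74.7 CPM against 357, 412, 383 and 270. Neither passed against non-cycling ECs of like depth. Cdkn2c (p18), an inhibitor of Cdk4 and Cdk6 that is itself an E2F target, was at 191, 233, 27.7 and 224 CPM against 13.1, 19.3, 13.4 and 13.4, with 1 UMI in HFpEF library 1, and did not pass in 4 of 4. The related Cdkn2d (p19) was at 170, 206, 55.5 and 157 CPM against 44.7, 42.2, 32.3 and 41.2. Klf2 and Klf4 had ratios of -0.95 ± 0.59 and -1.25 ± 0.41, lower in each library without passing 2-fold in all 4.

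Genes of endothelial identity stayed detectable at lower levels. Of 23 identity genes outside the rule, 3 were past 2-fold lower in 4 of 4 libraries and none higher, and 15 were lower in each library (1778 of all 6108 genes were), with a median of -0.75. In the 94 other members, 5 were past 2-fold lower, with a median of -0.95. Flt1, the VEGF receptor 1 that acts mainly as a decoy, was at 654, 662, 638 and 482 CPM against 1525, 1506, 1324 and 1498. Ptprb, the endothelial phosphatase VE-PTP, was at 354, 455, 166 and 254 CPM against 917, 919, 829 and 852. The 2 states did not overlap for either gene.

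Capillary genes showed the same direction. Of 13, 5 were past 2-fold lower, 11 were lower in each library (1778 of all 6108 genes were) and the median was -1.13. With the Ccnb1-only members left out, 8 of 13 were past 2-fold lower, with a median of -1.44. Cd300lg, a mucin-like receptor of capillary ECs, was at 406, 545, 444 and 329 CPM against 1001, 1126, 981 and 1004. Car4, a surface carbonic anhydrase, was at 173, 169, 111 and 97.2 CPM against 428, 411, 312 and 338. The fatty acid handling genes of heart capillaries were high in both states. Fabp4, the fatty acid binding protein, had 16000, 25034, 14280 and 15332 CPM against 25765, 33164, 25669 and 26218, and Cd36, the fatty acid translocase, had a ratio of -1.11 ± 0.39. Of 10 artery genes, 3 were past 2-fold lower (Hey1, Sema3g and Fbln5), with a median of -1.20, and 4 of 9 were without the Ccnb1-only members (Fbln5, Sema3g, Stmn2 and Efnb2, but not Hey1). In HFpEF library 1, Hey1, Sema3g and Fbln5 had 0, 0 and 1 UMIs, against non-cycling levels of 71.3, 77.9 and 83.3 CPM. As 3 UMIs equal 83.2 CPM there, a fall of these genes in that library could not be read at this depth. Sox17, an arterial transcription factor, was at 209, 228, 111 and 120 CPM against 380, 317, 326 and 301.

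The comparison was repeated with non-cycling ECs of like depth. Against the 10 non-cycling ECs nearest in total UMIs to each proliferating EC, 114 genes were past 2-fold higher and 13 past 2-fold lower. No capillary or artery gene was then past 2-fold in 4 of 4, and the medians of both lists were -1.01 and -0.997. Flt1 and Ptprb had median ratios of -1.37 and -1.67 against the matched cells and -1.43 and -1.72 against all non-cycling ECs, and neither was past 2-fold in 4 of 4 against the matched cells, which are also fewer. The part of depth in the lower counts was not tested. Among the other lists, the count past 2-fold higher was 30 of 39 for spindle, 10 of 19 for mitotic kinase, 11 of 18 for chromatin, 4 of 29 for replication and 3 of 8 for deoxynucleotide genes, where Rrm1 was lost. Past 2-fold lower were 1 of 23 identity genes and none of 21 CDK inhibitor and quiescence genes. H1f4 also no longer passed, although the replication-dependent histones still had 4 of 8 genes past 2-fold higher.

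Angiogenic and tip cell genes were mixed, with 1 of 20 past 2-fold higher, 1 lower and a median of 0.14. The higher one was Apln, the apelin ligand of sprouting ECs, at 72.6, 79.4, 111 and 232 CPM against 10.4, 15.7, 16.2 and 25.2. It was not past 2-fold in 4 of 4 against depth-matched cells. The lower one was Flt1, which like Apln did not pass against those cells. Nid2, a basement membrane protein, was at 78.7, 68.8, 166 and 164 CPM against 27.7, 29.2, 25.5 and 38.8, and Col4a1, a chain of collagen IV, had a ratio of 0.46 as a median.

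Among the 10 genes with the largest ratios outside the cell cycle lists, Lockd, a long noncoding RNA, was at 309, 259, 166 and 288 CPM, against at most 0.876. Pimreg was at 281, 212, 166 and 254 CPM, against at most 0.0740. Pbk, a mitotic kinase, was at 200, 175, 83.2 and 235 CPM, against at most 0.0974. Pclaf, which binds the sliding clamp, was highest in HFpEF library 2, with 166, 106, 222 and 400 CPM. Also among them were Knstrn (a kinetochore protein), Esco2 (cohesin acetyltransferase), Kifc1 (a mitotic kinesin), Iqgap3 and Nav2. Nav2, a cytoskeletal regulator best known from neurons, was at 375, 143, 166 and 235 CPM against 3.70, 3.25, 4.75 and 6.11.

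The 10 largest falls were Mgp, Slc6a6, Cxcl12, Btnl9, Slfn5, Acer2, Ptprb, Slc26a10, Alpl and Xdh. Mgp, the inhibitor of matrix calcification, was at 3.03, 0, 55.5 and 11.2 CPM against 197, 273, 136 and 160, which is 1, 0, 2 and 3 UMIs. Cxcl12, the chemokine that binds Cxcr4, was at 424, 635, 360 and 635 CPM against 1630, 1535, 1553 and 2128. Slc6a6, the taurine transporter, was at 118, 265, 55.5 and 194 CPM against 486, 564, 451 and 805. Btnl9 was at 124, 185, 83.2 and 243 CPM against 530, 517, 516 and 743. Cxcl12, Btnl9 and Slfn5 were past 2-fold lower also against depth-matched cells, and Mgp, Slc6a6, Acer2, Ptprb, Slc26a10, Alpl and Xdh were not in 4 of 4.

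**Figure D4:**
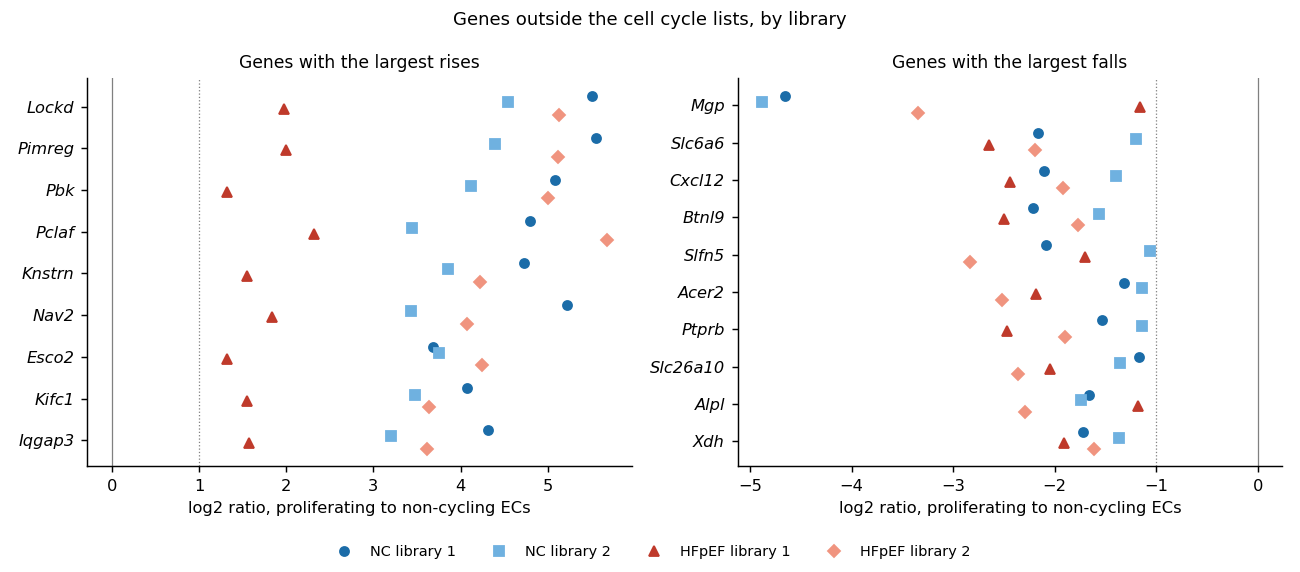
Log2 ratio of proliferating to non-cycling ECs of the same library (x axes) for 9 of the 10 genes with the largest rises and the 10 with the largest falls outside the cell cycle lists, with 1 symbol per library and a dotted line at 2-fold. HFpEF library 1, with 36064 UMIs in its sum, has the smallest ratio for each of the 9 rises plotted.

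Metabolic lists held no gene past the limit. None of 13 glycolysis, 12 fatty acid oxidation, 31 nuclear oxidative phosphorylation and 7 purine and pyrimidine synthesis genes was past 2-fold in 4 of 4 libraries in either direction. Their medians were -0.07, -0.27, 0.00 and 0.02. Gapdh was higher in each library, at 1289, 927, 1220 and 1203 CPM against 715, 697, 685 and 697. None of 24 interferon-induced and 11 inflammatory genes passed, with medians of -0.30 in both lists. Of 17 immediate early and heat shock genes none passed, but 14 were lower in each library (1778 of all 6108 genes were), with a median of -0.73. With the Ccnb1-only members left out, 1 glycolysis, 2 interferon-induced and 1 immediate early or heat shock gene were past 2-fold lower, and the glycolysis median was 0.04. Junb was at 3508, 4125, 3827 and 2724 CPM against 4580, 4695, 4371 and 4218.

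Smooth muscle and pericyte transcripts were carried by a few of the Ccnb1-only members. The 5 smooth muscle genes summed to 374, 55.7, 5460 and 4463 CPM in the Ccnb1-only members, to 17.1, 22.2, 0 and 8.15 CPM in the other members and to 119, 89.1, 144 and 96.3 CPM in non-cycling ECs. Tagln was the most abundant of them in the HFpEF libraries and Mustn1 in the NC libraries, and 1 to 4 of the 5 genes were at 0. The 6 pericyte genes outside the rule, led by Rgs5, summed to 909, 427, 2967 and 1848 CPM in the Ccnb1-only members, to 6.83, 14.8, 0 and 114 CPM in the others and to 260, 260, 337 and 226 CPM in non-cycling ECs. Of the 162 smooth muscle UMIs in the 25 Ccnb1-only members, 141 lay in 3 cells with 46 to 49 each, 1 in HFpEF library 1 and 2 in HFpEF library 2, and the other 22 cells held at most 8. Of their 123 pericyte UMIs, 116 lay in 5 cells, and the other 20 cells held at most 5. In NC library 2, smooth muscle genes were below the non-cycling level in both kinds of members. Lymphatic genes were at 539, 15.9, 0 and 59.8 CPM in all members, and 115 of the 178 UMIs in NC library 1 were Ccl21a in 1 Ccnb1-only member.

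Immune markers were scarce. Neutrophil, Schwann cell and other lymphocyte genes had no UMI in any of the 119 cells, in which B and T cell genes were at 0 by the rule. The 9 macrophage genes gave 4, 5, 0 and 12 UMIs, mostly Cd68 and Fcer1g. Platelet genes gave 4, 2, 1 and 1 UMIs. None of the platelet UMIs and 1, 1, 0 and 0 of the macrophage UMIs were in Ccnb1-only members. Fibroblast genes gave 3, 2, 2 and 10 UMIs, of which 0, 0, 2 and 6 were in Ccnb1-only members, and their defining gene Dcn was at 0 in every library. Cardiomyocyte genes summed to 39.3, 58.2, 111 and 44.8 CPM, below the non-cycling ECs at 125, 83.5, 375 and 124 CPM. Vein genes were at 321, 344, 277 and 374 CPM against 390, 396, 311 and 399, and endocardial genes, led by Cgnl1, at 96.9, 95.3, 83.2 and 67.3 CPM against 126, 119, 92.0 and 86.7. In the 94 other members, vein genes were at 256, 296, 145 and 367 CPM, and endocardial genes had log2 ratios of -0.35, -0.68, 0.24 and -0.32 to non-cycling ECs, with 4 vein and 3 endocardial UMIs in HFpEF library 1. These ratios use CPM without TMM scaling, and on 3 UMIs the endocardial sign in HFpEF library 1 could not be read. Vein genes in the Ccnb1-only members were at 829, 464, 712 and 451 CPM, above the non-cycling level in each library.

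The diets were compared within proliferating ECs over the 4 library sums with edgeR's quasi-likelihood test. Of 3983 genes tested, 7 (0.176%) passed an adjusted p of 0.05, with 6 (0.151%) higher in HFpEF and 1 (0.0251%) lower, and 330 had an unadjusted p below 0.05. DESeq2 called 5, and without the Ccnb1-only members edgeR called 3 of 3449 (0.087%). The 2 HFpEF libraries lay above both NC libraries for 17.8% of the tested genes and below both for 20.9%, so that a gene whose groups do not overlap is common here. A fit without 1 library has 1 library in that diet and takes its spread from the other diet alone. Counts of called genes from such fits are therefore not read as a response to diet. The count was 0 of 1800 genes without cells with UMIs of other cell types, with 88 at an unadjusted p below 0.05, and 2 of 2581 without cells above the 99th percentile of UMIs. In the same test, the non-cycling ECs had 1 gene of 13064 called (0.00765%), with 2358 at an unadjusted p below 0.05.

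Heat shock protein 70 genes were higher in HFpEF. Hspa1b (chromosome 17, 34956436-34959238) was at 684, 720, 3355 and 2459 CPM in proliferating ECs, a log2 fold change of 2.00 ± 0.24 (SE, edgeR, adjusted p = 0.000375). Both HFpEF libraries were above both NC libraries. Hspa1a (chromosome 17, 34969190-34972156) was at 1220, 1350, 3383 and 2993 CPM, a change of 1.29 ± 0.22 (edgeR, adjusted p = 0.0112). The genes are near-identical neighbours that encode the inducible chaperone, so reads could be split between them and they are not independent. Without the Ccnb1-only members, their changes were 2.76 and 1.88, with edgeR adjusted p of 0.00128 and 0.0296. Over the alternatives that kept all 4 libraries, the adjusted p (edgeR and DESeq2) was 1.79e-09 to 0.288 for Hspa1b and 0.00247 to 0.740 for Hspa1a. Hspa1b was not called without cells with UMIs of other cell types (change of 2.44) or above the 99th percentile of UMIs (1.46). Hspa1a was lost under both (1.60 and 0.78) and with a threshold of 5 UMIs (0.96). With a library left out, the changes were 1.77 to 2.17 for Hspa1b and 1.17 to 1.36 for Hspa1a. Non-cycling ECs had 2032, 980, 4050 and 5626 CPM of Hspa1b, a change of 1.68 (edgeR, adjusted p = 0.131), and the difference between the states was 0.14 ± 0.27 (adjusted p = 1).

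The rest of their list was not called. Of 16 immediate early and heat shock genes tested, 2 were called and 5 had a positive fold change, and the median was -0.25, against -0.004 for all genes. Hsp90aa1 had a change of 0.71 and Hspa8 of 0.31, while Fos and Egr1 had changes of -0.47 and -0.43, none of them called.

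Ccnd1 (chromosome 7, 144929931-144939925), which encodes cyclin D1, the growth factor-responsive partner of Cdk4, was at 197, 154, 305 and 736 CPM. The log2 fold change was 1.75 ± 0.32 (edgeR, adjusted p = 0.0221), and UMIs came from 16, 7, 5 and 40 cells. HFpEF library 2 held the highest level. The adjusted p of Ccnd1 (edgeR and DESeq2) was 0.000743 to 0.704 over the alternatives that kept all 4 libraries. Ccnd1 was not called with DESeq2 (0.513) or, among others, without the Ccnb1-only members (edgeR, 0.163, at a change of 1.80). Without NC library 1, NC library 2, HFpEF library 1 or HFpEF library 2, the changes were 1.86, 1.56, 2.00 and 0.69. Non-cycling ECs had 200, 255, 282 and 460 CPM, a change of 0.71, and the difference between the states was 0.84 ± 0.30 (edgeR, adjusted p = 0.877).

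Tagln, Acta2 and Myl9, contractile genes of smooth muscle, were called higher in HFpEF from a few Ccnb1-only members. Tagln was at 9.08, 0, 610 and 164 CPM, a change of 5.42 ± 0.77 (edgeR, adjusted p = 0.00162). Its 22 UMIs in HFpEF library 1 came from 1 cell, and 43 of its 44 UMIs in HFpEF library 2 came from Ccnb1-only members. Acta2 was at 12.1, 5.29, 582 and 138 CPM, a change of 4.56 ± 0.72 (edgeR, adjusted p = 0.00502), all HFpEF UMIs being in Ccnb1-only members. Myl9 was at 0, 0, 166 and 71.0 CPM, which is at least 9.51-fold higher in HFpEF, with 3 UMIs per NC library as the limit (edgeR, adjusted p = 0.0221). HFpEF library 1, with 6 UMIs in 1 cell, raises that bound, which is 5.69-fold from HFpEF library 2 alone. Without the Ccnb1-only members, none of the 3 had enough UMIs to be tested, and the smooth muscle list was at 0 and 8.15 CPM in the HFpEF libraries.

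Ifi27l2a (chromosome 12, 103442167-103443680), an interferon-induced gene, was the only gene called lower in HFpEF. It was at 160, 196, 0 and 7.47 CPM, a change of -4.64 ± 0.64 (edgeR, adjusted p = 0.0016), and of -4.70 without the Ccnb1-only members (edgeR, adjusted p = 0.0176). It was detected in 10 of 36, 4 of 20, 0 of 10 and 2 of 53 cells, and 1 cell of NC library 2 held 29 of that library's 37 UMIs. In non-cycling ECs it was at 29.9, 25.2, 23.7 and 30.8 CPM. The proliferating ECs were above the non-cycling level in both NC libraries and below it in HFpEF library 2, on 2 UMIs. The 0 of HFpEF library 1 allows up to 83.2 CPM (3 UMIs), so its position could not be read at this depth. The adjusted p of Ifi27l2a was 4.11e-07 (edgeR) to 0.0590 (DESeq2) over the alternatives that kept all 4 libraries and tested the gene. It was not among the genes tested without cells with UMIs of other cell types or without cells above the percentile limit on UMIs. Hspa1b and Hspa1a were not called in those settings, and the range for Ifi27l2a does not cover them. With a library left out, the changes were -4.80 to -4.50, and -8.04 without HFpEF library 2, where HFpEF held 0 UMIs. Of 21 listed interferon-induced genes tested, none was called and 10 had a positive change, with a median of -0.005. Without the Ccnb1-only members, 12 of 19 had a positive change, with a median of 0.10. In non-cycling ECs 24 of 25 did (6442 of all 13064 genes there), with a median of 0.24.

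The 4 rule genes chose the members, so their change with diet is not given as a result. Of all 3983 genes tested, 1974 (49.6%) had a positive change, and of 28 replication genes 24 did, with a median of 0.41, against 0.12 in non-cycling ECs. The mitotic kinase and spindle lists had 11 of 19 and 21 of 41 positive, with medians of 0.12 and 0.01. Capillary genes had 1 of 13 positive, with a median of -0.67, against -0.18 in non-cycling ECs, led by Timp4 (-1.29) and Aqp7 (-1.19). Fatty acid oxidation had 0 of 8 positive with a median of -0.64, against 7 of 17 and -0.03 in non-cycling ECs. Angiogenic genes had 16 of 18 positive with a median of 0.46, against 14 of 24 and 0.06 in non-cycling ECs. Inflammatory genes had 6 of 9 positive with a median of 0.90, against 0.65 in non-cycling ECs, and 6 of 8 with 0.69 without the Ccnb1-only members. Without the Ccnb1-only members, 1693 of 3449 genes (49.1%) had a positive change. The replication list then had 23 of 26 positive with a median of 0.34, the spindle list 15 of 41 with -0.11, the capillary list 0 of 13 with -0.64, fatty acid oxidation 0 of 7 with -0.51 and angiogenic genes 12 of 17 with 0.37. No gene of these lists was called, and genes of a list share the same 4 libraries.

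**Figure D5:**
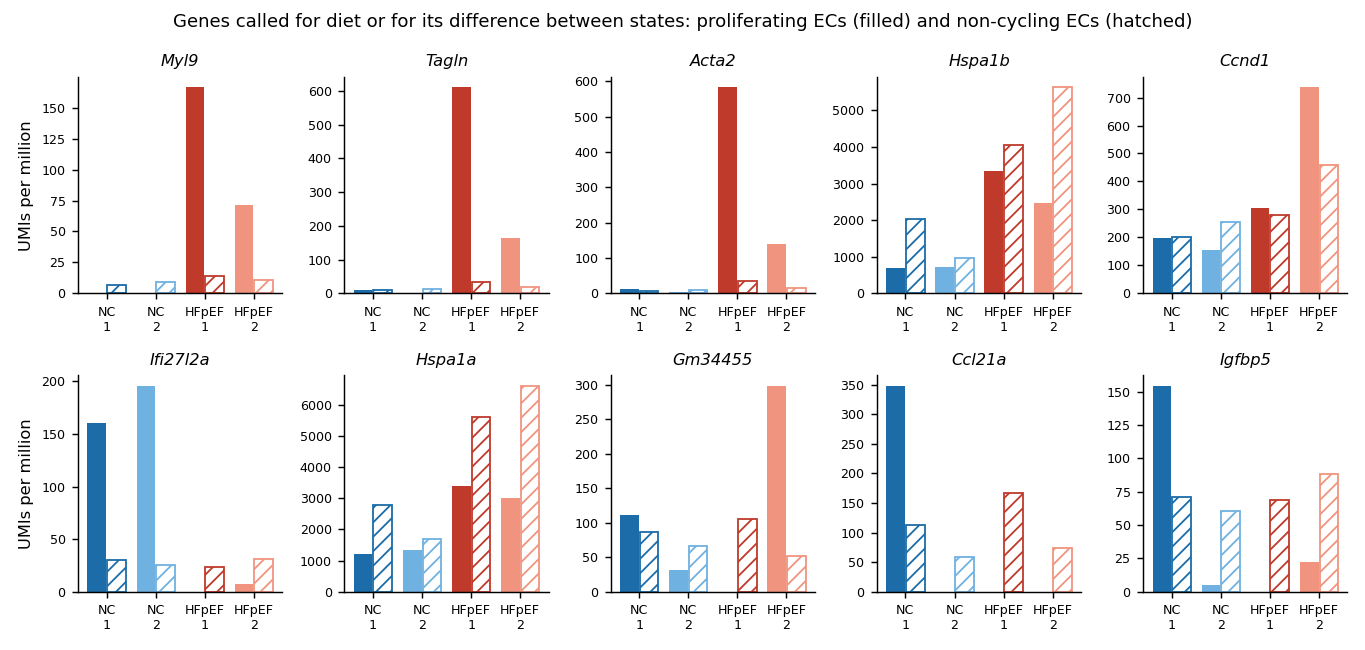
CPM of the 10 genes called for diet in proliferating ECs or for the difference of its effect between states, per library, in proliferating ECs (filled bars) and non-cycling ECs (hatched bars), each panel with its own y axis from 0. Hspa1b, Hspa1a and Ccnd1 have taller HFpEF than NC bars in both states, while the tall bars of Tagln, Acta2 and Myl9 come from 1 to 3 cells per library and that of Ccl21a from 1 cell.

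The difference of the diet effect between proliferating and non-cycling ECs was tested with edgeR over 8 sums with the library as a block. Of 11472 genes, 7 (0.061%) passed, with 4 (0.0349%) more positive and 3 (0.0262%) more negative in proliferating ECs. They were Tagln, Gm34455, Acta2 and Myl9, and Ccl21a, Ifi27l2a and Igfbp5. DESeq2 called none, with 138 genes at an unadjusted p below 0.05, and without the Ccnb1-only members edgeR called 3 of 11386 (0.0263%). Counts from fits without a library are not given for this difference. Gm34455, a long noncoding RNA (chromosome 17, 26467560-26503200), was at 112, 31.8, 0 and 299 CPM, so that the diet groups overlapped. Ifi27l2a was called with and without the Ccnb1-only members, at -4.85 and -4.93 (edgeR, adjusted p = 1.07e-06 and 4.55e-06). Its adjusted p was 0.115 with DESeq2, in a range of 1.7e-08 to 1 over the alternatives that kept all 4 libraries.

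The only gene that non-cycling ECs had called for diet was Cyp1a1, a xenobiotic monooxygenase, at 31.8, 33.2, 0.739 and 1.46 CPM (edgeR, adjusted p = 0.00173). In the proliferating ECs it had 1, 0, 0 and 0 UMIs, so the same change was not detectable there.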

How the data were processed

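RFP-positive left ventricular cells of 4 mouse libraries (2 NC, 2 HFpEF) were profiled by droplet 3′ RNA sequencing. The deposited counts are whole UMIs per gene and cell. Per the labels, the authors used fastp and Cell Ranger 5.0.1 with mm10, and the study's methods describe downsampling between samples before aggregation. No value column was left unmapped, and no author comparison was used. Library totals were 30387717, 31517933, 11163876 and 48003732 UMIs in 7465, 6924, 5769 and 21685 cells.

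Cells with over 200 genes, under 20% mitochondrial and under 1% hemoglobin UMIs (Hba-a1, Hba-a2, Hbb-bs, Hbb-bt) were kept, and 2014 were left out. No doublet caller was run. The members, gene lists and tests were chosen with earlier results of these data known, so no list is independent evidence. Counts were summed per library and state. edgeR 4.0.16 in R 4.3.3 (TMM, filterByExpr, quasi-likelihood test, Benjamini-Hochberg adjustment, adjusted p under 0.05) tested HFpEF against NC in each state and, with the library as a block, the difference between states. The scripts were tested on counts simulated with 1 fixed dispersion and 200 changed genes. At a log2 change of 1, 16 of the 200 were called in proliferating ECs and 0 for the difference between states. At a log2 change of 2, the numbers were 139 and 45. A gene that was not called may therefore still have changed. P-values measure only the spread between these libraries, which may be technical or include Scarb1 genotype. CPM printed are UMIs per 1000000 of a sum. Ratios of single genes and fold changes use TMM-scaled sums. Ratios of summed lists and the bound for Myl9 use CPM without that scaling. State ratios used genes of at least 20 CPM on average and a prior of 2 UMIs, and a gene was counted when past 2-fold in the same direction in 4 of 4 libraries. Shares were compared by an exact permutation test (SciPy 1.17.1) with exact Clopper-Pearson 95% intervals.

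Genes were named by rule. The rule took the 4 rule genes and, of each list, up to 4 genes of largest mean absolute ratio and up to 2 of highest CPM. It also took the 10 largest rises and falls outside the cell cycle lists with at least 50 CPM in the higher state. All genes called for diet in proliferating ECs or for its interaction were named as well. Hsp90aa1, Hspa8, Fos, Egr1, Timp4, Aqp7 and Cyp1a1, where named for diet, were chosen after their values were seen. Some genes that the rule named are not reported here. All symbols of the 36 lists were found in the files. Alternatives covered DESeq2 1.42.0, filters, thresholds of 2 and 5 UMIs, depth, cells with UMIs of other cell types, each library in turn and, chosen after seeing the data, leaving out the Ccnb1-only members. A diet test without a library has 1 library in that diet, so its spread comes from the other diet alone. For single genes, only effect sizes are given for it. The range of its counts of called genes in proliferating ECs is given only to show how the count moves. Promoters are from RefSeq.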

Additional observations from a re-analysis of the deposited data

Results flagged for a closer look

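For 7 genes, the effect of HFpEF against NC differed between proliferating and non-cycling ECs by the edgeR test of the difference itself. Each value below is the log2 fold change of that difference, with the adjusted p. DESeq2 called none of the 7, and no explanation was tested.

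Tagln had 4.38 (4.83e-06), Acta2 3.27 (0.00235) and Myl9 12.4 (0.00445), and the fitted value of Myl9 depends on the prior since both NC libraries were at 0 UMIs. Their UMIs in the HFpEF libraries came from 1 cell of HFpEF library 1 and from up to 3 cells of HFpEF library 2, nearly all of them Ccnb1-only members. Without those members, Tagln was at 3.41, 0, 0 and 4.07 CPM, Acta2 at 0, 7.41, 0 and 0 CPM and Myl9 at 0, 0, 0 and 4.07 CPM. None was called, and the fitted values (-0.33, -8.88 and 7.87) could not be read at this depth. With a library left out, the values were 3.42 to 13.7 for Tagln, 2.74 to 4.25 for Acta2 and 12.2 to 12.6 for Myl9. That of 13.7 was without NC library 1, where NC held 0 UMIs of Tagln.

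Ccl21a (ENSMUSG00000094686) had -13.9 (1.1e-10), a fitted value that depends on the prior, since all 115 UMIs among proliferating ECs were in 1 Ccnb1-only cell of NC library 1. The gene has near-identical copies, so the assignment of its reads is uncertain. Igfbp5 had -2.57 (0.0336), and 44 of its 51 UMIs in NC library 1 were in Ccnb1-only members, 43 of them in 1 cell. Without those members it was at -2.69 and not called (edgeR, adjusted p = 1). Without NC library 1, Ccl21a had 0 UMIs in the proliferating ECs that were left, and Igfbp5 had 1, 0 and 6 UMIs per library. The fitted values there (-0.58 for Ccl21a and 1.34 for Igfbp5) could not be read at this depth.

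Ifi27l2a had -4.85 (1.07e-06), with UMIs in 10, 4, 0 and 2 proliferating ECs of the 4 libraries. It was not called with DESeq2 (adjusted p = 0.115) or without cells with UMIs of other cell types. With a library left out, the values were -5.17 to -4.66, and -13.6 without HFpEF library 2, where HFpEF held 0 UMIs. Gm34455 had 1.92 (0.000475), with UMIs in 11, 5, 0 and 12 proliferating ECs. The call was lost with a threshold of 5 UMIs (edgeR, adjusted p = 0.0668, at 1.66) and with depth-matched non-cycling ECs (0.0665, at 2.01). It was also lost without cells above the 99th percentile of UMIs (0.168, at 1.96) and without cells with UMIs of other cell types (-0.61). Without NC library 1, NC library 2, HFpEF library 1 or HFpEF library 2, the values were 2.78, 1.31, 2.49 and -13.1.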

How the results depend on the processing

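The share of proliferating ECs differed between diets by 0.0013 percentage points in thinned cells (1 draw, against -0.0085 for the shares expected over all draws), by 0.0563 with thinning to 2000 UMIs and by -0.183 without thinning. Leaving out a library gave -0.0261 to 0.0287.

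The count of genes called for diet in proliferating ECs (7) was 18 without a filter on low counts, 4 with a threshold of 2 UMIs, 0 without cells with UMIs of other cell types (1800 genes tested, 88 at an unadjusted p below 0.05), 2 without cells above the 99th percentile of UMIs, 3 without the Ccnb1-only members and 8 to 46 without each library in turn. The count for the difference between states (7) was 0 with DESeq2 (138 at an unadjusted p below 0.05), 4 with a threshold of 5 UMIs, 0 without cells with UMIs of other cell types (262), 4 with depth-matched non-cycling ECs and 3 without the Ccnb1-only members. Genes past 2-fold higher in proliferating ECs (117) numbered 73 without cells with UMIs of other cell types, 33 without cells above the 99th percentile, 194 with a prior of 0.5 UMIs and 119 to 245 without each library. Genes past 2-fold lower (51) numbered 17 and 83 with thresholds of 2 and 5 UMIs, 16 without cells above the 99th percentile, 13 with depth-matched ECs, 109 without the Ccnb1-only members and 61 to 104 without each library. A diet test without a library takes its spread from the other diet alone. Its count of called genes shows only that the count moves and is not evidence of a response to diet. The causes were not tested.

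Fitted differences of the diet effect changed sign for Tagln (-0.012) and Acta2 (-1.11) with a threshold of 5 UMIs. They also did for Gm34455 without cells with UMIs of other cell types (-0.61). Without the Ccnb1-only members the sign changed for Ccl21a (0.16), Tagln (-0.33) and Acta2 (-8.88), where Ccl21a had 0 UMIs left and the others few. It changed for Gm34455 without HFpEF library 2 (-13.1, against 2.78 at most without another library), where HFpEF held 0 UMIs. It changed for Igfbp5 without NC library 1 (1.34, against -12.9 at the lowest without another), where NC held 1 UMI. Signs from sums at or near 0 UMIs could not be read at this depth. ECs with no artery, vein, lymphatic or endocardial UMI were not compared, since 0, 1, 2 and 3 members were left.

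Libraries of the 2 diets share numbers in the labels. With the replicate block, 6 genes were called for diet, and Ccnd1 was not (edgeR, adjusted p = 0.283). The deviations of same-numbered libraries from their group means correlated at -0.0347 over 3983 genes in proliferating ECs and at 0.0828 over 13064 genes in non-cycling ECs, so the numbers were not taken to pair the samples. With 10 members and 36064 UMIs, HFpEF library 1 limits each comparison.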
